A study of Mus musculus with 14 samples.

Results

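The genes described here encode 9 enzymes that make nucleotides: Tk1, Tyms, Rrm1, Rrm2, Cad, Umps, Paics, Impdh2 and Ctps. They were chosen by gene symbol, with no expression value in the rule, but with earlier results of these data known. All 9 were among the 10106 genes measured. Levels are given as RPKM, the reads of a gene scaled to the length of the gene and to the number of reads in the library. A gene was tested where its mean over the 14 libraries reached 1 RPKM, which kept all 9 enzymes and 9793 genes in all.

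The RNA came from OT-I cells, CD8+ T cells of mice that carry 1 transgenic receptor, specific for the ovalbumin peptide SIINFEKL. In every group, CFSE-labelled OT-I cells were put into CD45.2+ C57BL/6 recipients by tail vein on day 0, with an age of 8 to 12 weeks in the labels. The 4 antigen groups received 223 pmol of antigen by vein on day 1: ERY1-OVA, ovalbumin directed to erythrocytes (3 libraries); OVA, the soluble protein (3 libraries); TER119-SIINFEKL, the peptide directed to erythrocytes (3 libraries); and SIINFEKL, the free peptide (2 libraries). The Naive group received saline (3 libraries) and gave the level in resting cells. Spleens were taken on day 4, erythrocytes were lysed, and transferred cells were enriched with CD8 beads and sorted as CD3e+, CD8+ and CD45.1+. The recipients kept their own lymphocytes, which the CD45.1 gate was meant to remove. The labels number the libraries of a group without saying whether each came from its own mouse, so p-values measure the spread between libraries, which may be technical.

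Cells build nucleotides from amino acids, one-carbon units and ribose phosphate, or recover them from bases and nucleosides. Purines are assembled on ribose through inosine monophosphate, and pyrimidines through orotate and uridine monophosphate. Ribonucleotide reductase turns ribonucleotides into deoxyribonucleotides for DNA, and thymidylate comes either from deoxyuridylate or from salvaged thymidine. Resting T cells make little of either kind, and T cells that enter division after antigen raise both supply lines; inhibitors of several of these enzymes are in use as immunosuppressants or antiproliferative drugs.

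The 9 enzymes fall into 3 roles. For DNA precursors, Tk1 phosphorylates thymidine in the cytosol, Tyms methylates deoxyuridylate to thymidylate, and Rrm1 and Rrm2 are the large and the small subunit of ribonucleotide reductase. For pyrimidines, Cad carries the opening enzyme activities of the de novo route on 1 polypeptide, Umps makes uridine monophosphate from orotate, and Ctps makes CTP from UTP. For purines, Paics catalyses 2 consecutive steps towards inosine monophosphate, and Impdh2 commits inosine monophosphate to guanine nucleotides. In GRCm38 (GENCODE vM21) the DNA precursor genes lie at chr11:117815526-117826092 (Tk1, minus strand), chr5:30058202-30073617 (Tyms, minus), chr7:102441695-102469771 (Rrm1, plus) and chr12:24708241-24714146 (Rrm2, plus). The pyrimidine genes lie at chr5:31054780-31078479 (Cad, plus), chr16:33954782-33967038 (Umps, minus) and chr4:120539868-120570276 (Ctps, minus). The purine genes lie at chr5:76951307-76967509 (Paics, plus) and chr9:108560286-108565584 (Impdh2, plus). GENCODE also names a processed pseudogene of Tyms and one of Impdh2, and how the authors' counting divided reads between such copies is not given in the sources used here.

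The RefSeq promoter table (GRCm38.p6) held a window for all 9 genes, 10 windows in all because Ctps has 2 starts. The 250 bases before the start are shown for 5 genes that cover the 3 roles, each with a window wholly before the gene as GENCODE draws it, because they moved by very different amounts in the same libraries. Capitals mark every match, on either strand, to the 4 kinds of motif searched. The E-box was searched as CACGTG, which reads alike on both strands. The second motif was the box named after its letters, CCAAT. The third was the GC box, GGGCGG, and the last an E2F type word, either TTTCGCGC or its variant TTTGGCGC. The windows are chr5:30073626-30073875 (Tyms, minus strand), chr7:102441445-102441694 (Rrm1, plus), chr5:31054530-31054779 (Cad, plus), chr16:33967039-33967288 (Umps, minus) and chr5:76951052-76951301 (Paics, plus), each written 5′ to 3′ on the gene's strand.
Tyms: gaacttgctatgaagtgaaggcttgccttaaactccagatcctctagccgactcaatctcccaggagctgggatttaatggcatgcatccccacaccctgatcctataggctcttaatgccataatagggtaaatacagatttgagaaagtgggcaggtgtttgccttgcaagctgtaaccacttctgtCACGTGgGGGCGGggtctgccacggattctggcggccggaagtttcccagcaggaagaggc
Rrm1: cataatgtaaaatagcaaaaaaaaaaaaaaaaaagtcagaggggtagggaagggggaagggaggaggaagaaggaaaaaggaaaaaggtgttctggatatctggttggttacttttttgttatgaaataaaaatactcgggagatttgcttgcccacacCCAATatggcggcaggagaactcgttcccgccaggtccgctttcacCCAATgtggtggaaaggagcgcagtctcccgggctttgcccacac
Cad: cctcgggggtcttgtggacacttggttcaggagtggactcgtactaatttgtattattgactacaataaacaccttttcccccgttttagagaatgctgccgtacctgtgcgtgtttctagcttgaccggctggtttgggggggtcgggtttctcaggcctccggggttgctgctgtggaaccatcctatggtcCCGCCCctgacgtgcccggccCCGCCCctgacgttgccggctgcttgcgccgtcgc
Umps: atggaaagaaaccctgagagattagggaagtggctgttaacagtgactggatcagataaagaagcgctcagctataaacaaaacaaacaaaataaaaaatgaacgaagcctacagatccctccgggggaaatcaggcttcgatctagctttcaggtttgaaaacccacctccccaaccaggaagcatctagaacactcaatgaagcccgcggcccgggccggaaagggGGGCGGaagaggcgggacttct
Paics: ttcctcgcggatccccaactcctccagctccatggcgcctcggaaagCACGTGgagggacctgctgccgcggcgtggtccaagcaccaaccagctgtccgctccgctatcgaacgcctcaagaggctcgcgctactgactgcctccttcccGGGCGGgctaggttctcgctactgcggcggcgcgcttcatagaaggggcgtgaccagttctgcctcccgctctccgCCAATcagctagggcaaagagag

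GGGCGG was the commonest word, found in 8 of the 10 windows of these genes and in 32.7% of the 32851 mouse windows in the table. CCAAT was in 3 of the 10, against 33.8% of all windows. CACGTG was in 3 of the 10 (Tyms, Paics and Impdh2), against 6.02% of all windows. The E2F type words were in none of the 10 and in 0.654% of all windows, which says only that these letters are not in these 250 bases. In the printed windows, the Tyms E-box began 61 bases before the start and its GGGCGG 54 bases before it, while the Paics E-box began 203 bases before the start. The CCAAT words of Rrm1 began 91 and 45 bases before the start. A match is a description of the sequence, and no binding was measured.

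Transcripts that mark CD8 T cells were abundant in all libraries: 4 of 5 listed genes were measured, and together they reached 1400 to 2110 RPKM in the antigen groups and 2110 to 2390 RPKM in Naive, while Cd4 was 1.31 RPKM at most. Of the B cell list 2 of 6 genes were measured, and their sum was 12.8 to 27.5 RPKM in the antigen groups and 8.49 to 10.3 RPKM in Naive; Cd22 was called higher than Naive in all 4 antigen groups (log2 fold change 3.33 to 4.94), and Cd79b in none. The myeloid list (7 of 10 measured) summed to 27.6 to 98.4 RPKM in the antigen groups and 27 to 49.3 RPKM in Naive, the NK list (1 of 2) to 2.51 to 14.7 and 6.2 to 6.88 RPKM, and the erythroid list (2 of 6, both alpha globins) to 1.53 to 20.3 and 7.54 to 10.9 RPKM. Cd68 was called higher than Naive after ERY1-OVA (1.24), OVA (0.88) and TER119-SIINFEKL (1.26), Itgax higher after OVA (0.84) and H2-Aa lower after ERY1-OVA (-1.94). Klrb1c and Cd3e were called lower than Naive after OVA (-0.92 and -0.39). Cd8a was called lower after ERY1-OVA, OVA and TER119-SIINFEKL (-0.33, -0.46 and -0.45), as was Cd8b1 (-0.56, -0.47 and -0.94). TER119-SIINFEKL was called above SIINFEKL in Klrb1c (1.21) and Cd22 (1.61) and below it in Cd8b1 (-0.62). SIINFEKL was called below OVA in Itgax (-1.49) and Cd22 (-0.86) and above it in Cd3e (0.39) and Cd8a (0.31). OVA replicate 1 and TER119-SIINFEKL replicate 1 stood apart from their groups in H2-Aa, H2-Ab1 and Cd74, but not in Cd68. Cd68 had 4.09, 6.21 and 3.91 RPKM after OVA and 5.37, 6.12 and 6.60 RPKM after TER119-SIINFEKL. TER119-SIINFEKL replicate 1 also had the most Hba-a1 of its group (9.08 RPKM, against 1.185 and 0.697) and Klrb1c (14.7 RPKM, against 4.72 and 6.75). H2-Aa had 1.48, 0.676 and 1.84 RPKM after ERY1-OVA, 13.8, 4.16 and 2.30 RPKM after OVA, 6.22, 1.32 and 1.58 RPKM after TER119-SIINFEKL, 2.04 and 3.86 RPKM after SIINFEKL, and 6.11, 3.24 and 5.22 RPKM in Naive. OVA replicate 1 and TER119-SIINFEKL replicate 1 were left out together as an alternative. None of these lists neared the CD8 sum, and their part in the results was not tested. The SIINFEKL libraries were less alike than those of other groups: the SD within a group over all genes was 0.416 log2 units for SIINFEKL and 0.226 to 0.255 for the other groups. The deposited values carry no read numbers, so the depth behind each level is unknown. In such bulk samples, a change in the share of cells that make a transcript and a change in its amount per cell cannot be told apart.

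Thymidine kinase 1 showed the widest range of the 9. Tk1 stood at 50.0, 66.0 and 63.6 RPKM after ERY1-OVA, at 89.7, 63.6 and 73.2 RPKM after OVA, at 47.7, 55.2 and 57.8 RPKM after TER119-SIINFEKL, at 11.2 and 1.77 RPKM after SIINFEKL, and at 1.71, 0.894 and 1.23 RPKM in Naive. The first 3 groups lay far above Naive with no overlap, and of the SIINFEKL libraries replicate 1 stood well above Naive and replicate 2 just above its highest library. The log2 fold change from Naive, with its standard error (SE) from limma, was 5.59 ± 0.46 after ERY1-OVA, 5.92 ± 0.46 after OVA and 5.44 ± 0.46 after TER119-SIINFEKL (adjusted p = 1.5e-06, 6e-07 and 1.4e-06). By size, the OVA change ranked 2 among the 9793 genes tested.

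Rrm2, the subunit that holds the radical of ribonucleotide reductase, had 124, 126 and 114 RPKM after ERY1-OVA, 172, 146 and 176 RPKM after OVA, 81.7, 116 and 109 RPKM after TER119-SIINFEKL, 23.2 and 4.87 RPKM after SIINFEKL, and 4.24, 3.4 and 4.9 RPKM in Naive. Its partner Rrm1 had 87.3, 70.0 and 76.0 RPKM after ERY1-OVA, 95.2, 96.9 and 124 RPKM after OVA, 66.7, 88.5 and 82.9 RPKM after TER119-SIINFEKL, 14.7 and 9.58 RPKM after SIINFEKL, and 11.0, 11.9 and 10.8 RPKM in Naive. Both subunits were high in the same 9 libraries, but from unequal starting points: in Naive cells Rrm1 averaged 11.2 ± 0.59 RPKM (SD, n = 3) and Rrm2 4.18 ± 0.75 RPKM, whereas after OVA Rrm2 was the more abundant, at 165 ± 17 RPKM against 106 ± 16 RPKM for Rrm1. Rrm2 accordingly had the larger fold, 4.87 ± 0.38, 5.31 ± 0.38 and 4.61 ± 0.38 on the log2 scale after ERY1-OVA, OVA and TER119-SIINFEKL (adjusted p = 1.2e-06, 3.3e-07 and 1.1e-06). For Rrm1 the fold was 2.79 ± 0.16, 3.22 ± 0.16 and 2.81 ± 0.16 (adjusted p = 3.6e-07, 4.9e-08 and 1.6e-07).

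Thymidylate synthase had the order of groups of Tk1 and Rrm2. Tyms had 19.7, 25.6 and 24.5 RPKM after ERY1-OVA, 37.2, 23.1 and 28.4 RPKM after OVA, 20.1, 18.7 and 20.2 RPKM after TER119-SIINFEKL, 5.64 and 1.99 RPKM after SIINFEKL, and 1.57, 1.07 and 2.19 RPKM in Naive. It rose by 3.90 ± 0.32, 4.23 ± 0.32 and 3.67 ± 0.32 log2 units over Naive after ERY1-OVA, OVA and TER119-SIINFEKL (adjusted p = 1.5e-06, 5.1e-07 and 1.7e-06). In all 4 DNA precursor genes OVA had the highest mean and Naive the lowest.

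**Figure D1:**
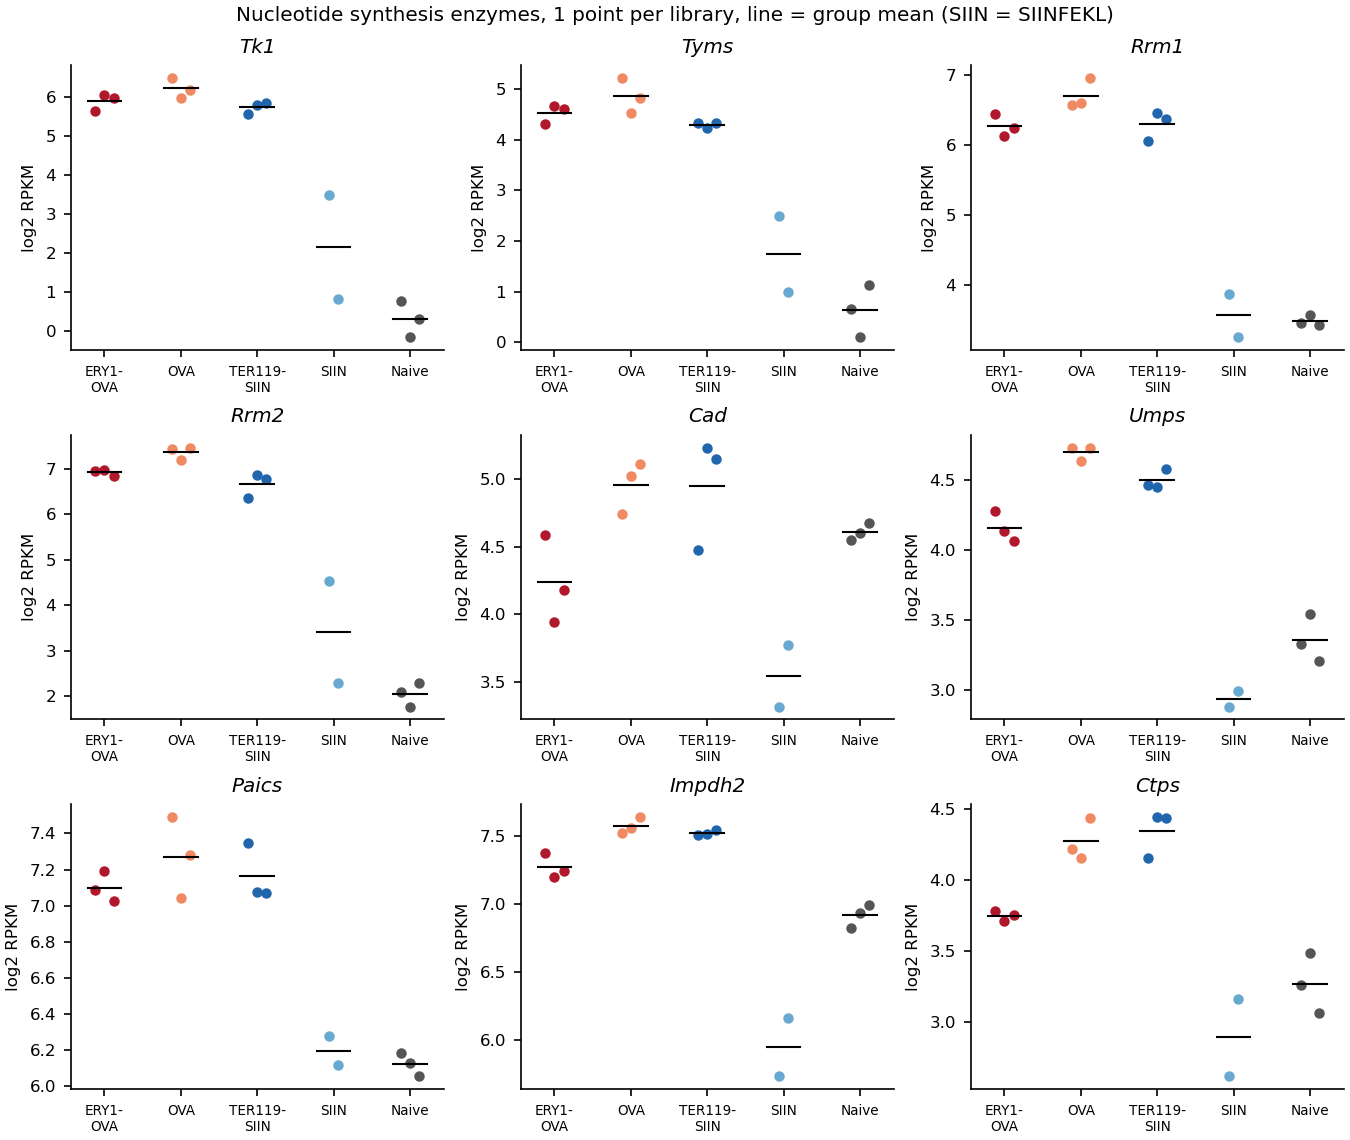
Expression of the 9 enzymes, with log2 RPKM on each vertical axis, 1 point per library and a line at the group mean (SIIN stands for SIINFEKL; the axes do not start at 0 and differ between panels). Tk1, Tyms, Rrm1 and Rrm2 were 2.79 to 5.92 log2 units above Naive in the 3 left groups, while Cad differed by -0.37 to 0.35 there, and the 2 SIINFEKL points of Tk1, 11.2 and 1.77 RPKM, lay far apart.

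Among the pyrimidine enzymes Umps and Ctps rose by less than the DNA precursor genes, and Cad had no common direction. Cad had 24.1, 15.4 and 18.1 RPKM after ERY1-OVA, 26.7, 32.6 and 34.7 RPKM after OVA, 22.2, 37.7 and 35.5 RPKM after TER119-SIINFEKL, 9.95 and 13.6 RPKM after SIINFEKL, and 23.4, 24.3 and 25.6 RPKM in Naive. The OVA libraries were all above Naive and the SIINFEKL libraries all below, while ERY1-OVA and TER119-SIINFEKL overlapped Naive. No difference from Naive passed the test after ERY1-OVA (log2 fold change -0.37, 95% interval -0.81 to 0.07), OVA (0.35, -0.09 to 0.80) or TER119-SIINFEKL (0.34, -0.10 to 0.79). The OVA difference passed when only the groups compared were fitted (0.35, adjusted p = 0.032) or with the length and GC correction (0.53). The TER119-SIINFEKL difference passed with that correction (0.59) or without TER119-SIINFEKL replicate 1 (0.58, adjusted p = 0.022).

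Umps, which completes uridine monophosphate synthesis, had 19.4, 17.6 and 16.8 RPKM after ERY1-OVA, 26.6, 24.9 and 26.5 RPKM after OVA, 22.1, 21.9 and 23.9 RPKM after TER119-SIINFEKL, 7.38 and 7.96 RPKM after SIINFEKL, and 10.0, 11.7 and 9.23 RPKM in Naive. The 5 groups did not overlap anywhere, in the order OVA, TER119-SIINFEKL, ERY1-OVA, Naive and SIINFEKL. The log2 fold change from Naive was 0.80 ± 0.11 after ERY1-OVA, 1.34 ± 0.11 after OVA and 1.14 ± 0.11 after TER119-SIINFEKL (adjusted p = 6.9e-05, 7.2e-07 and 2.8e-06). Ctps, the CTP synthase, had 13.8, 13.1 and 13.5 RPKM after ERY1-OVA, 18.7, 17.9 and 21.6 RPKM after OVA, 17.8, 21.8 and 21.7 RPKM after TER119-SIINFEKL, 6.15 and 8.98 RPKM after SIINFEKL, and 9.6, 11.2 and 8.37 RPKM in Naive. It was higher than Naive in the first 3 groups without overlap, at 0.48 ± 0.15, 1.00 ± 0.15 and 1.07 ± 0.15 log2 units (adjusted p = 0.023, 0.00016 and 8e-05). The ERY1-OVA call for Ctps did not survive correction for length and GC (0.30) or removal of ERY1-OVA replicate 1 or 3 or Naive replicate 1 or 3 (0.38 to 0.48).

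Both purine enzymes were abundant without antigen, in the Naive group. Paics had 136, 146 and 130 RPKM after ERY1-OVA, 180, 132 and 156 RPKM after OVA, 162, 135 and 134 RPKM after TER119-SIINFEKL, 77.6 and 69.4 RPKM after SIINFEKL, and 72.7, 70.0 and 66.6 RPKM in Naive. The first 3 groups overlapped one another and lay above Naive, by 0.98 ± 0.12, 1.15 ± 0.12 and 1.04 ± 0.12 log2 units (adjusted p = 3.7e-05, 7.4e-06 and 1.6e-05), whereas SIINFEKL overlapped Naive. Impdh2 had 166, 147 and 152 RPKM after ERY1-OVA, 183, 188 and 199 RPKM after OVA, 182, 183 and 186 RPKM after TER119-SIINFEKL, 53.3 and 71.5 RPKM after SIINFEKL, and 113, 122 and 127 RPKM in Naive. It was above Naive in the first 3 groups and below it after SIINFEKL, with no overlap in any of the 4. The rise was 0.36 ± 0.11 after ERY1-OVA, 0.66 ± 0.11 after OVA and 0.60 ± 0.11 after TER119-SIINFEKL on the log2 scale (adjusted p = 0.02, 0.00037 and 0.00061). Quantile normalization reduced these to 0.18, 0.38 and 0.39 and ended the ERY1-OVA call, as did the length and GC correction (0.26) and leaving out ERY1-OVA replicate 1 or Naive replicate 1 (0.31 each).

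Of the 9 enzymes, 8 were called higher and none lower than Naive after each of ERY1-OVA, OVA and TER119-SIINFEKL, the exception being Cad each time. Among all 9793 genes, 20.9%, 24.4% and 24.6% were called higher and 19%, 23.1% and 23% lower in those 3 comparisons. The libraries of 8, 9 and 8 of the 9 enzymes did not overlap Naive, beside 52.5%, 59.8% and 58% of all genes. The median log2 fold change of the 9 was 0.98, 1.34 and 1.14, beside -0.01, -0.04 and -0.00 over all genes tested. These comparisons share the Naive libraries, so their likeness is not independent.

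**Figure D2:**
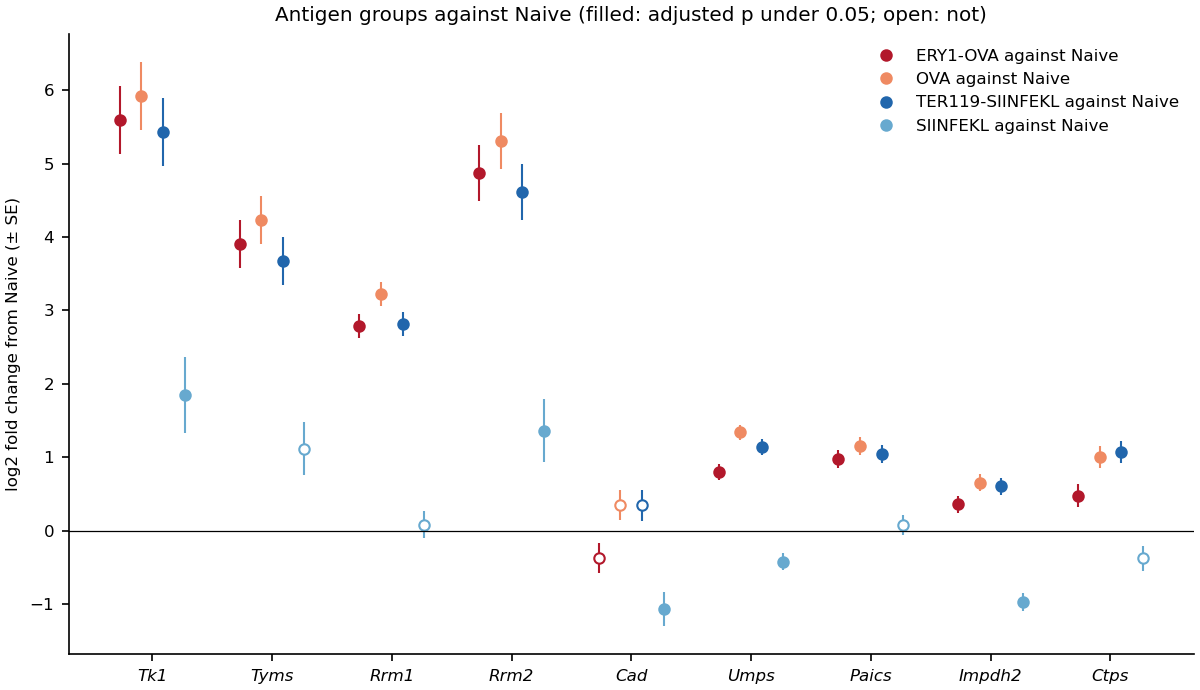
Log2 fold change from Naive of each enzyme in the 4 antigen groups, with SE bars (limma, 14 libraries); filled points had an adjusted p under 0.05 and open points did not. The 4 DNA precursor genes reach 2.79 to 5.92 in ERY1-OVA, OVA and TER119-SIINFEKL, the other 5 lie between -0.37 and 1.34 there, and SIINFEKL lies between -1.07 and 1.85.

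After the free peptide the 9 enzymes did not move together. Relative to Naive, 2 were called higher and 3 lower, beside 7.58% of all genes higher and 8.34% lower. Cad (-1.07 ± 0.23, adjusted p = 0.0085), Impdh2 (-0.97 ± 0.12, adjusted p = 0.00028) and Umps (-0.42 ± 0.12, adjusted p = 0.03) fell, with both SIINFEKL libraries below all 3 Naive libraries. The SIINFEKL libraries of 4 of the 9 enzymes did not overlap Naive in either direction, a share near the 46.2% of all genes. Tk1 (1.85 ± 0.52, adjusted p = 0.028) and Rrm2 (1.36 ± 0.43, adjusted p = 0.045) were higher, although for Rrm2 the second SIINFEKL library, at 4.87 RPKM, lay within the Naive range. The other 4 did not pass: Tyms differed by 1.12 (95% interval 0.34 to 1.89, adjusted p = 0.051), Rrm1 by 0.08 (-0.31 to 0.47), Paics by 0.07 (-0.22 to 0.37) and Ctps by -0.38 (-0.74 to -0.01). Tyms passed with quantile normalization (1.06, adjusted p = 0.032), with a block for replicate number (1.19, adjusted p = 0.03), after correction for length and GC (1.09, adjusted p = 0.049) and without Naive replicate 3 (1.37, adjusted p = 0.04), and narrowly with median-of-ratios rescaling (1.13) and without OVA replicate 1 (1.12).

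The rises in that comparison rested on SIINFEKL replicate 1. Without it, the log2 fold change from Naive was 0.52 for Tk1 and 0.24 for Rrm2, neither past the test, and without replicate 2 it was 3.19 and 2.49. Replicate 1 also held 5.64 RPKM of Tyms against 1.99 RPKM in replicate 2, and 21.2 against 2.89 RPKM of Mki67, a marker of cycling cells. In Cad, Impdh2 and Ctps the order was the opposite, with replicate 1 the lower of the pair. Without replicate 1 the falls of Cad (-0.84) and Umps (-0.37) also missed the threshold, and Impdh2 was the 1 member still called; without replicate 2, Tyms (1.87) and Ctps (-0.65) passed as well. The Rrm2 call was also lost without the mean-variance trend (1.36, adjusted p = 0.056), in a fit of the 2 groups alone, and without any 1 library other than TER119-SIINFEKL replicate 1 or SIINFEKL replicate 2. The Tk1 call was lost in the fit of the 2 groups alone and without Naive replicate 2 or 3 (1.62 and 1.85), and that of Umps in the fit of the 2 groups alone and without Naive replicate 1 or 2 (-0.44 and -0.33).

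The study's main contrast is antigen on erythrocytes against the same antigen in solution. For whole protein, all 9 enzymes had a lower mean after ERY1-OVA than after OVA, but only Umps passed the test, at -0.54 ± 0.11 (adjusted p = 0.032), beside 0.654% of all genes called lower. At an unadjusted p under 0.05, 5 of the 9 differed, beside 17.2% of all genes, and the libraries of 6 did not overlap, beside 24.4% of all genes. Of the 8 not called, Cad had the widest difference, -0.72 (95% interval -1.17 to -0.28, adjusted p = 0.096), then Ctps at -0.52 (-0.85 to -0.20), Rrm2 at -0.44 (-1.26 to 0.38) and Rrm1 at -0.43 (-0.79 to -0.08). Tk1 and Tyms were both at -0.33, with intervals of -1.33 to 0.66 and -1.02 to 0.37. Impdh2 was at -0.30 (-0.53 to -0.06) and Paics at -0.17 (-0.43 to 0.09). These intervals use a spread shared by all 5 groups. For Rrm2 the SD was 0.07 log2 units in ERY1-OVA and 0.15 in OVA, but 1.59 in SIINFEKL. The Umps call was lost under quantile normalization (-0.49, adjusted p = 0.053), in a fit of the 2 groups alone and without any 1 of the 6 ERY1-OVA and OVA libraries (-0.60 to -0.49), and no direction turned. Other alternatives added calls in this contrast. With the length and GC correction, Cad (-0.72, adjusted p = 0.023) and Rrm1 (-0.54, adjusted p = 0.039) passed. Cad also passed without TER119-SIINFEKL replicate 1 (-0.72, adjusted p = 0.048), and Ctps without the SIINFEKL group (-0.52, adjusted p = 0.041). Of the 7 myeloid markers tested, 0 passed on the adjusted p in the same comparison, and they did not share a direction. The widest differences were those of H2-Aa, a class II antigen presentation gene (-2.05, adjusted p = 0.13), and Lyz2, a lysozyme of myeloid cells (-2.59, adjusted p = 0.11). H2-Ab1 (-1.74), Cd74 (-1.08) and Itgax also had a lower mean after ERY1-OVA. Cd68 differed the other way (0.36), and Itgam hardly differed (0.006). The part of these markers in the result was not tested. Without OVA replicate 1 and TER119-SIINFEKL replicate 1, the libraries highest in H2-Aa within their groups, Umps differed by -0.52 (adjusted p = 0.089) and Cad by -0.83 (adjusted p = 0.083).

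For the peptide, all 9 enzymes were higher after TER119-SIINFEKL than after SIINFEKL, with no overlap between libraries, as in 56.4% of all genes. All 9 passed the test, beside 20.4% of all genes called higher and 17% called lower. Tk1 (3.58 ± 0.52, adjusted p = 0.00019) and Rrm2 (3.25 ± 0.43, adjusted p = 0.00011) had the largest differences, then Rrm1 (2.73 ± 0.18) and Tyms (2.55 ± 0.36). The purine and pyrimidine enzymes followed, with Impdh2 at 1.57 ± 0.12, Umps at 1.56 ± 0.12, Ctps at 1.45 ± 0.17, Cad at 1.41 ± 0.23 and Paics at 0.97 ± 0.14. Without SIINFEKL replicate 2 the difference was 2.25 for Tk1 and 2.13 for Rrm2, and all 9 remained called without either SIINFEKL library.

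The effect of erythrocyte targeting differed between peptide and protein in this set, by a test of the difference itself. All 9 interaction terms were positive and passed, beside 20.6% of all genes called in that direction. The term, which is the targeted minus soluble difference for peptide less that for protein, was 3.91 ± 0.69 for Tk1 (adjusted p = 0.00086), 3.69 ± 0.57 for Rrm2, 3.17 ± 0.25 for Rrm1 and 2.88 ± 0.48 for Tyms. For the others it was 2.13 ± 0.31 for Cad, 2.10 ± 0.16 for Umps, 1.97 ± 0.23 for Ctps, 1.87 ± 0.17 for Impdh2 and 1.14 ± 0.18 for Paics (largest adjusted p among the 9, 0.00086). The Tk1 term was 2.58 without SIINFEKL replicate 2. The protein and the peptide also differed in the targeting molecule, ERY1 or TER119, so those features cannot be told apart.

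**Figure D3:**
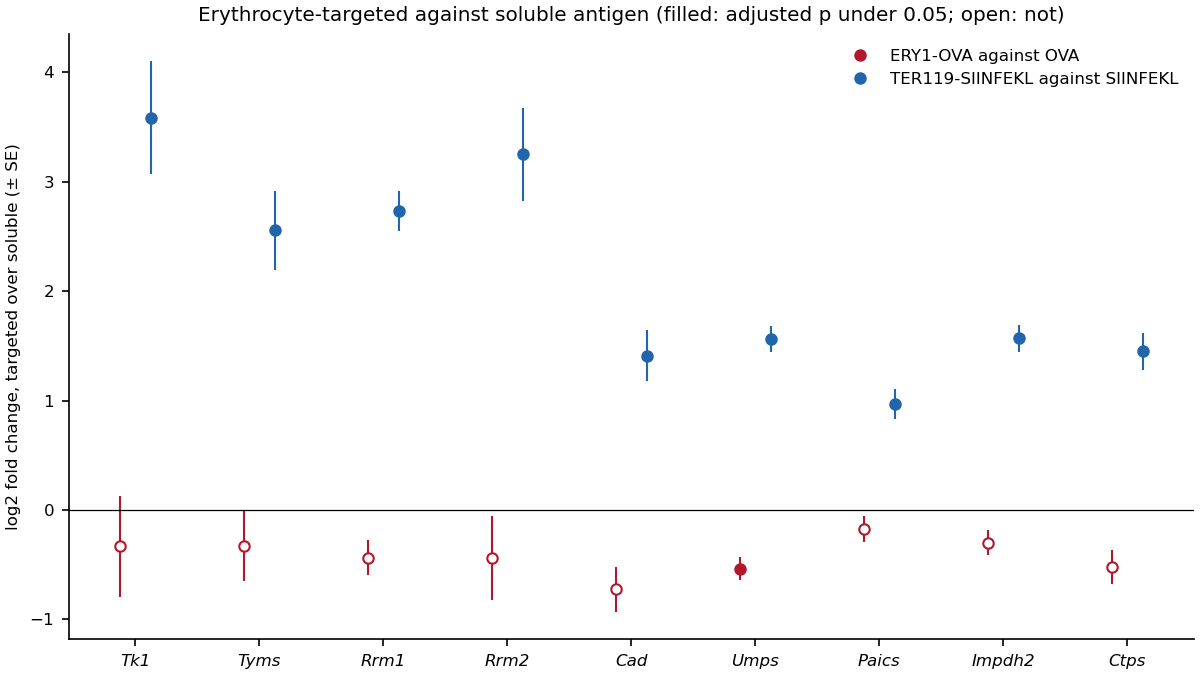
Log2 fold change of erythrocyte-targeted over soluble antigen, for whole protein (ERY1-OVA against OVA) and peptide (TER119-SIINFEKL against SIINFEKL), with SE bars; filled points had an adjusted p under 0.05. Every peptide point lies between 0.97 and 3.58, and every protein point between -0.72 and -0.17, with only Umps filled.

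Between the soluble antigens, all 9 enzymes were lower after SIINFEKL than after OVA, without overlap and past the test, beside 22.4% of all genes called lower and 61.4% without overlap. The differences ran from -4.07 ± 0.52 for Tk1 and -3.95 ± 0.43 for Rrm2, through -3.14 ± 0.18 for Rrm1 and -3.12 ± 0.36 for Tyms, to -1.07 ± 0.14 for Paics. Umps (-1.76 ± 0.12), Impdh2 (-1.62 ± 0.12), Cad (-1.42 ± 0.23) and Ctps (-1.38 ± 0.17) lay between. Between the targeted antigens, TER119-SIINFEKL and ERY1-OVA, limma called 0 of the 9 and 0.562% of all genes in either direction, while 4 of the 9 and 10.9% of all genes had an unadjusted p under 0.05. Those 4 were Cad (0.72, 95% interval 0.27 to 1.16), Ctps (0.60, 0.27 to 0.92), Umps (0.34, 0.11 to 0.57) and Impdh2 (0.25, 0.01 to 0.48), with the higher mean after TER119-SIINFEKL each time. The 4 DNA precursor genes differed by -0.26 to 0.02, and their intervals reached from -1.15 for Tk1 to 0.84 for the same gene. Differences of that size were not resolved in this fit, where the 5 groups share 1 spread per gene. For Tk1 the SD was 0.22 log2 units in ERY1-OVA and 0.14 in TER119-SIINFEKL, but 1.89 in SIINFEKL, outside this comparison. Cad passed without TER119-SIINFEKL replicate 1 (0.95) and after correction for length and GC (0.77), and Ctps when either SIINFEKL library or both were left out of the fit (0.60).

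A second gene encodes a related enzyme for 4 of the 9, and none of those relatives was called higher than Naive after ERY1-OVA, OVA or TER119-SIINFEKL. Rrm2b, the small subunit that supplies resting cells, had 15.9, 17.4 and 14.6 RPKM after ERY1-OVA, 15.0, 15.5 and 15.3 RPKM after OVA, 17.9, 12.8 and 12.7 RPKM after TER119-SIINFEKL, 20.9 and 20.8 RPKM after SIINFEKL, and 28.5, 27.1 and 26.2 RPKM in Naive. It fell from Naive by 0.77, 0.83 and 0.94 log2 units after ERY1-OVA, OVA and TER119-SIINFEKL, all past the test, where Rrm2 rose. The ratio of Rrm2 to Rrm2b was 4.58 to 11.5 in those 9 libraries, 1.11 and 0.235 after SIINFEKL, and 0.126 to 0.187 in Naive. Tk2, the mitochondrial thymidine kinase, likewise fell by 0.65, 0.72 and 0.96, and the ratio of Tk1 to Tk2 was 5.05 to 8.10 in the 9 libraries, 0.633 and 0.103 after SIINFEKL, and 0.0563 to 0.0965 in Naive.

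For the other pairs the shift was smaller. Ctps2, the second CTP synthase, was lower than Naive by 0.48, 0.62 and 0.58 log2 units after ERY1-OVA, OVA and TER119-SIINFEKL, each past the test. Ctps remained below Ctps2 in all 14 libraries, with a ratio of 0.478 to 0.972 in the 9 libraries of those groups, 0.216 and 0.258 after SIINFEKL, and 0.234 to 0.296 in Naive. Impdh1, the isozyme of Impdh2, was lower than Naive after ERY1-OVA (-0.58) and TER119-SIINFEKL (-0.53), differed by -0.28 after OVA without passing, and fell after SIINFEKL (-0.61), as Impdh2 did; that Impdh1 call was lost without SIINFEKL replicate 1 (-0.29, adjusted p = 0.41), without Naive replicate 2 or 3 (-0.57 and -0.60) and in a fit of the 2 groups alone. Impdh2 exceeded Impdh1 in every library, by 4.40 to 6.30 times in the 9 libraries, by 2.19 and 1.87 times after SIINFEKL, and by 2.47 to 2.66 times in Naive. These ratios are a description within libraries and were not tested.

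**Figure D4:**
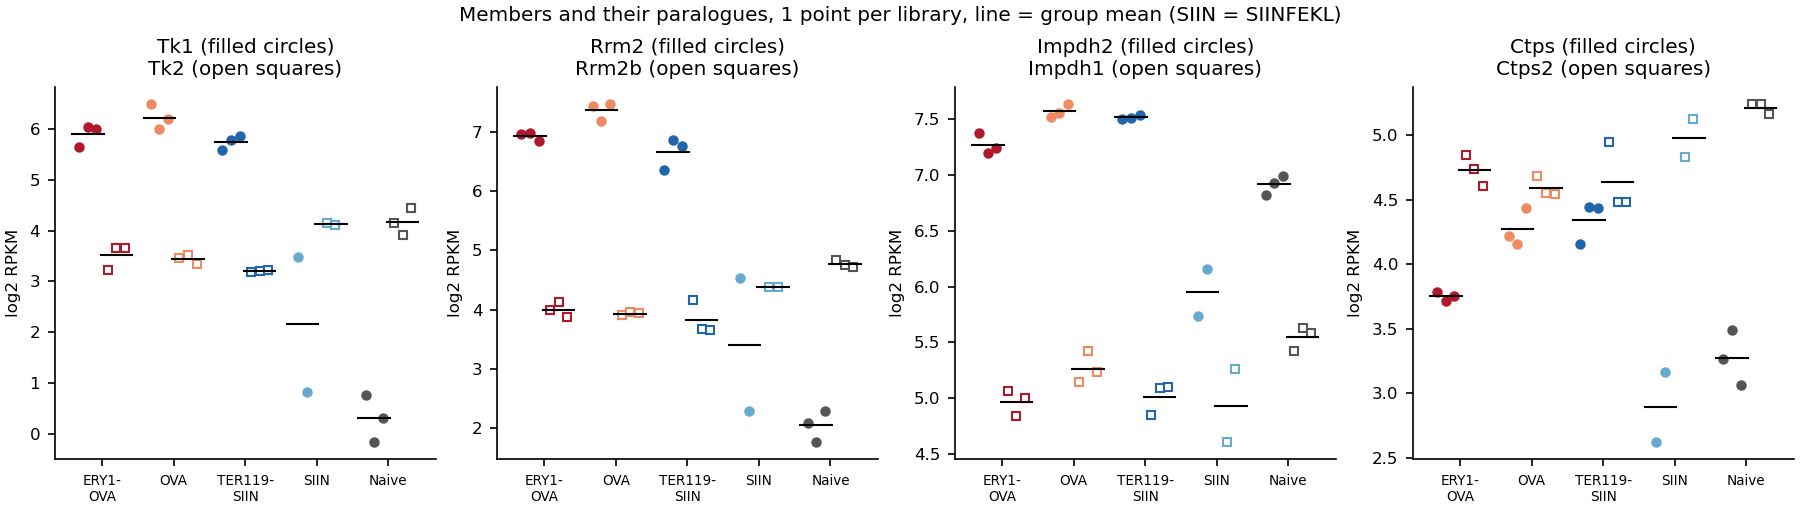
Log2 RPKM of 4 enzymes (filled circles) and their relatives (open squares), 1 point per library with a line at the group mean (SIIN stands for SIINFEKL; axes differ between panels). Tk1 and Rrm2 lie above Tk2 and Rrm2b in the 9 ERY1-OVA, OVA and TER119-SIINFEKL libraries and below them in Naive, whereas Ctps lies below Ctps2 and Impdh2 above Impdh1 in all 14.

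The wider nucleotide network was read from 8 lists of other genes, of which 60 were measured and 59 tested. Counts in each list are to be read against the shares of all genes, which for ERY1-OVA, OVA and TER119-SIINFEKL against Naive were 20.9%, 24.4% and 24.6% higher and 19%, 23.1% and 23% lower, and for SIINFEKL 7.58% and 8.34%. After ERY1-OVA, OVA and TER119-SIINFEKL, 21, 33 and 30 of the 59 were higher than Naive and 9, 6 and 8 lower, with medians of 0.22, 0.40 and 0.43 log2 units. After SIINFEKL, 4 were higher and 10 lower than Naive (median -0.11), which became 2 and 1 without SIINFEKL replicate 1, 9 and 15 without replicate 2, and 3 and 4 in a fit of the 2 groups alone. ERY1-OVA had 5 lower and 0 higher than OVA, beside 0.654% and 0.408% of all genes. Those 5 became 0 without OVA replicate 1 and TER119-SIINFEKL replicate 1 together or without any 1 of ERY1-OVA replicate 1 or 2, the OVA libraries or TER119-SIINFEKL replicate 3. They became 1 without ERY1-OVA replicate 3, 2 without TER119-SIINFEKL replicate 2 or any Naive library, 9 without either SIINFEKL library and 8 with the length and GC correction. TER119-SIINFEKL had 33 higher and 7 lower than SIINFEKL, beside 20.4% and 17% of all genes. SIINFEKL had 10 higher and 35 lower than OVA, beside 19.9% and 22.4% of all genes; the 10 became 6 without either SIINFEKL library. TER119-SIINFEKL had 4 higher and 0 lower than ERY1-OVA, beside 0.49% of all genes higher. Those 4 became 0 without ERY1-OVA replicate 2 or TER119-SIINFEKL replicate 2 or 3, 2 without ERY1-OVA replicate 1, and 8 without either SIINFEKL library. The interaction was positive in 34 and negative in 9, beside 20.6% and 17.1% of all genes. With the length and GC correction the medians against Naive were 0.08, 0.30 and 0.23 after ERY1-OVA, OVA and TER119-SIINFEKL.

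Among the other DNA precursor genes, 5 of 10 were higher and 3 lower than Naive after each of those 3 antigens. Dut, which makes deoxyuridylate, rose by 2.37, 2.94 and 2.33 log2 units after ERY1-OVA, OVA and TER119-SIINFEKL. Dut had 79.3, 88.4 and 87.3 RPKM after ERY1-OVA, 158, 105 and 122 RPKM after OVA, 84.2, 79.1 and 85.1 RPKM after TER119-SIINFEKL, 25.7 and 15.6 RPKM after SIINFEKL, and 19.0, 13.4 and 17.6 RPKM in Naive. The first 3 groups lay above Naive without overlap, and Nudt1, which clears oxidized nucleotides, also rose after all 3 (1.31, 1.59 and 1.43). Dck, the deoxycytidine kinase, rose by 1.40, 1.38 and 1.29 and was also higher than Naive after SIINFEKL (0.75). Dctd, the deoxycytidylate deaminase, was lower than Naive after ERY1-OVA (-0.75), lower after ERY1-OVA than after OVA (-0.96 ± 0.16, adjusted p = 0.03), higher after TER119-SIINFEKL than after ERY1-OVA (1.11 ± 0.16, adjusted p = 0.011), and lower than Naive after SIINFEKL (-1.01, and -0.85 without SIINFEKL replicate 1, no longer past the test). The call against OVA was lost without ERY1-OVA replicate 1 or 2 or any OVA library (-1.03 to -0.85, adjusted p = 0.06 to 0.12) and narrowly without TER119-SIINFEKL replicate 3, and that against ERY1-OVA without ERY1-OVA replicate 2 or TER119-SIINFEKL replicate 2 or 3 (1.00 to 1.10, adjusted p = 0.064 to 0.093). Dut and Dctd were also higher after TER119-SIINFEKL than after SIINFEKL (2.05 and 1.37), and Dut and Nudt1 lower after SIINFEKL than after OVA (-2.66 and -1.32).

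In the purine list, 3, 6 and 5 of 12 tested genes were higher than Naive after ERY1-OVA, OVA and TER119-SIINFEKL, and 3, 1 and 3 lower, so that the ERY1-OVA counts were near the shares of all genes. Ppat, the enzyme that opens the route, rose by 0.84 after OVA and 0.86 after TER119-SIINFEKL and differed by 0.34 after ERY1-OVA without passing. Pfas, a middle step, rose by 0.42, 0.81 and 0.71 after ERY1-OVA, OVA and TER119-SIINFEKL. Gmps, which makes GMP, rose by 0.43, 0.79 and 0.66, and Adss, on the branch to AMP, by 0.65, 0.57 and 0.77. Prps2, a synthase of the ribose donor, fell after ERY1-OVA, OVA, TER119-SIINFEKL and SIINFEKL (-0.45, -0.39, -0.33 and -0.60), the last lost without SIINFEKL replicate 1 (-0.42, adjusted p = 0.13). After SIINFEKL, Gart (-0.91) and Atic (-0.70), which act before and after Paics in the route, fell from Naive, and 4 of the 12 were lower and 0 higher; neither Gart (-0.46) nor Atic (-0.41) passed without SIINFEKL replicate 1. Ppat, Pfas and Gart were higher after TER119-SIINFEKL than after SIINFEKL (1.27, 1.19 and 1.16) and lower after SIINFEKL than after OVA (-1.25, -1.29 and -1.29).

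Of the pyrimidine and CTP list, 1, 3 and 0 of 7 genes were higher than Naive after ERY1-OVA, OVA and TER119-SIINFEKL, and 1 was lower each time, which was Ctps2. Uck2, a uridine and cytidine kinase of the salvage route, was lower after ERY1-OVA than after OVA (-0.71, lost without any 1 of the ERY1-OVA or OVA libraries, adjusted p = 0.06 to 0.12), lower than Naive after SIINFEKL (-0.79), higher after TER119-SIINFEKL than after SIINFEKL (0.98) and lower after SIINFEKL than after OVA (-1.27). It rose over Naive after OVA (0.48), as did Uck1 (0.40), and Cmpk1, the UMP and CMP kinase (0.36), which was also called after ERY1-OVA (0.38, not called after correction for length and GC). Cmpk2 and Uckl1 went the other way between the peptide groups, lower after TER119-SIINFEKL than after SIINFEKL (-0.99 and -0.72) and higher after SIINFEKL than after OVA (0.84 and 0.71). Dhodh, the enzyme between Cad and Umps, differed from Naive by -0.20, 0.30, 0.12 and -0.35 after ERY1-OVA, OVA, TER119-SIINFEKL and SIINFEKL, with no call.

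The one-carbon list, which supplies purine and thymidylate synthesis, held 2, 5 and 6 of 9 genes higher than Naive after ERY1-OVA, OVA and TER119-SIINFEKL, with 1 lower each time, and 3 lower and 0 higher after SIINFEKL. Shmt1, the cytosolic serine hydroxymethyltransferase, had 10.6, 8.97 and 11.6 RPKM after ERY1-OVA, 14.9, 14.1 and 16.1 RPKM after OVA, 19.9, 22.6 and 24.7 RPKM after TER119-SIINFEKL, 3.96 and 4.56 RPKM after SIINFEKL, and 4.61, 5.24 and 6.53 RPKM in Naive. The 5 groups did not overlap, and TER119-SIINFEKL exceeded ERY1-OVA by 1.11 ± 0.15 (adjusted p = 0.011), a call lost without ERY1-OVA replicate 2 or TER119-SIINFEKL replicate 2 or 3 (1.01 to 1.10, adjusted p = 0.064 to 0.079). Mthfd2, the mitochondrial dehydrogenase, rose by 1.31, 1.66 and 1.51 after ERY1-OVA, OVA and TER119-SIINFEKL. Mthfd1, its cytosolic relative, rose after OVA (0.81) and TER119-SIINFEKL (0.86), differed by 0.04 after ERY1-OVA, and fell after SIINFEKL (-0.93). Mthfd1, Shmt2 and Fpgs, which retains folate in the cell, were lower after ERY1-OVA than after OVA (-0.77, -0.69 and -0.65, each at an adjusted p of 0.036), and these 3 were also the genes below Naive after SIINFEKL (-0.93, -0.73 and -0.71; without SIINFEKL replicate 1, -0.71, -0.46 and -0.44, none past the test). Each of these ERY1-OVA calls was lost without any 1 of the ERY1-OVA or OVA libraries. Fpgs was below Naive after ERY1-OVA as well (-0.86), and Slc19a1, the reduced folate carrier, was higher after TER119-SIINFEKL than after ERY1-OVA (0.78) and than in Naive (0.88). The first of these calls was lost without ERY1-OVA replicate 1 or 2 or TER119-SIINFEKL replicate 2 or 3 (0.70 to 0.78, adjusted p = 0.06 to 0.13) and in a fit of the 2 groups alone. Shmt1, Mthfd1 and Mthfd2 were higher after TER119-SIINFEKL than after SIINFEKL (2.39, 1.79 and 1.26) and lower after SIINFEKL than after OVA (-1.82, -1.74 and -1.41).

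Among the purine salvage and breakdown genes, Xdh and Adk were also called higher than Naive after free peptide. Of 6 genes of purine salvage and breakdown, 4, 6 and 5 were higher than Naive after ERY1-OVA, OVA and TER119-SIINFEKL and 0 lower, and after SIINFEKL 2 were higher and 1 lower. Xdh, xanthine dehydrogenase, had 16.3, 11.8 and 12.8 RPKM after ERY1-OVA, 7.39, 9.61 and 8.6 RPKM after OVA, 11.1, 16.3 and 11.6 RPKM after TER119-SIINFEKL, 31.5 and 11.4 RPKM after SIINFEKL, and 5.08, 5.61 and 4.34 RPKM in Naive. It was above Naive in every antigen library, by 1.44, 0.77, 1.36 and 1.93 log2 units in that order, and highest in SIINFEKL replicate 1. Adk, the adenosine kinase, rose by 1.30, 1.16, 1.66 and 0.98, the last lost without SIINFEKL replicate 1 (0.32). Pnp rose by 1.02, 1.19 and 1.03 after the first 3 antigens, and Hprt, which recovers hypoxanthine and guanine, by 0.89, 1.02 and 0.78. Ada, the adenosine deaminase, rose after OVA (0.87) and fell after SIINFEKL (-1.04, and -0.45 without SIINFEKL replicate 1).

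The remaining lists hold nucleotide kinases, the pentose phosphate route and transporters. Of 5 nucleotide kinases, 2, 3 and 3 were higher than Naive after ERY1-OVA, OVA and TER119-SIINFEKL and 0 lower, with Nme1 higher after OVA and TER119-SIINFEKL (0.90 and 0.73) and Ak3 after all 3 (0.45, 0.38 and 0.43, not called after correction for length and GC). After SIINFEKL 0 of these 5 and 0 of the 7 pentose phosphate genes were called against Naive. Of the latter list, 2, 4 and 5 were higher and 1, 0 and 0 lower after the first 3 antigens, with Tkt, the transketolase, at 0.43, 0.89 and 0.77. Pgd and G6pdx, dehydrogenases of the oxidative branch, rose after OVA (0.60 and 0.58) and TER119-SIINFEKL (0.57 and 0.52), Rpe, an epimerase, after ERY1-OVA (0.48) and TER119-SIINFEKL (0.52), and Pgls, the lactonase, fell after ERY1-OVA (-0.52). After correction for length and GC neither Rpe (0.16 and 0.23) nor Pgls (-0.46) was called. Nme1 and Nme2, which phosphorylate nucleoside diphosphates, were higher after TER119-SIINFEKL than after SIINFEKL (1.22 and 0.86), as were Tkt, Pgd and G6pdx (1.12, 0.62 and 0.60). Of 3 transporters tested, Slc29a1 rose after ERY1-OVA, OVA and TER119-SIINFEKL (0.97, 1.00 and 1.45). Slc28a2, which imports purine nucleosides, rose after SIINFEKL (1.02, and 0.75 without SIINFEKL replicate 1, not past the test) and after ERY1-OVA (0.45, not called after correction for length and GC) and was lower after TER119-SIINFEKL than after SIINFEKL (-0.91). Slc29a3 was higher after SIINFEKL than after OVA (0.54) and was called against Naive in no group.

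**Figure D5:**
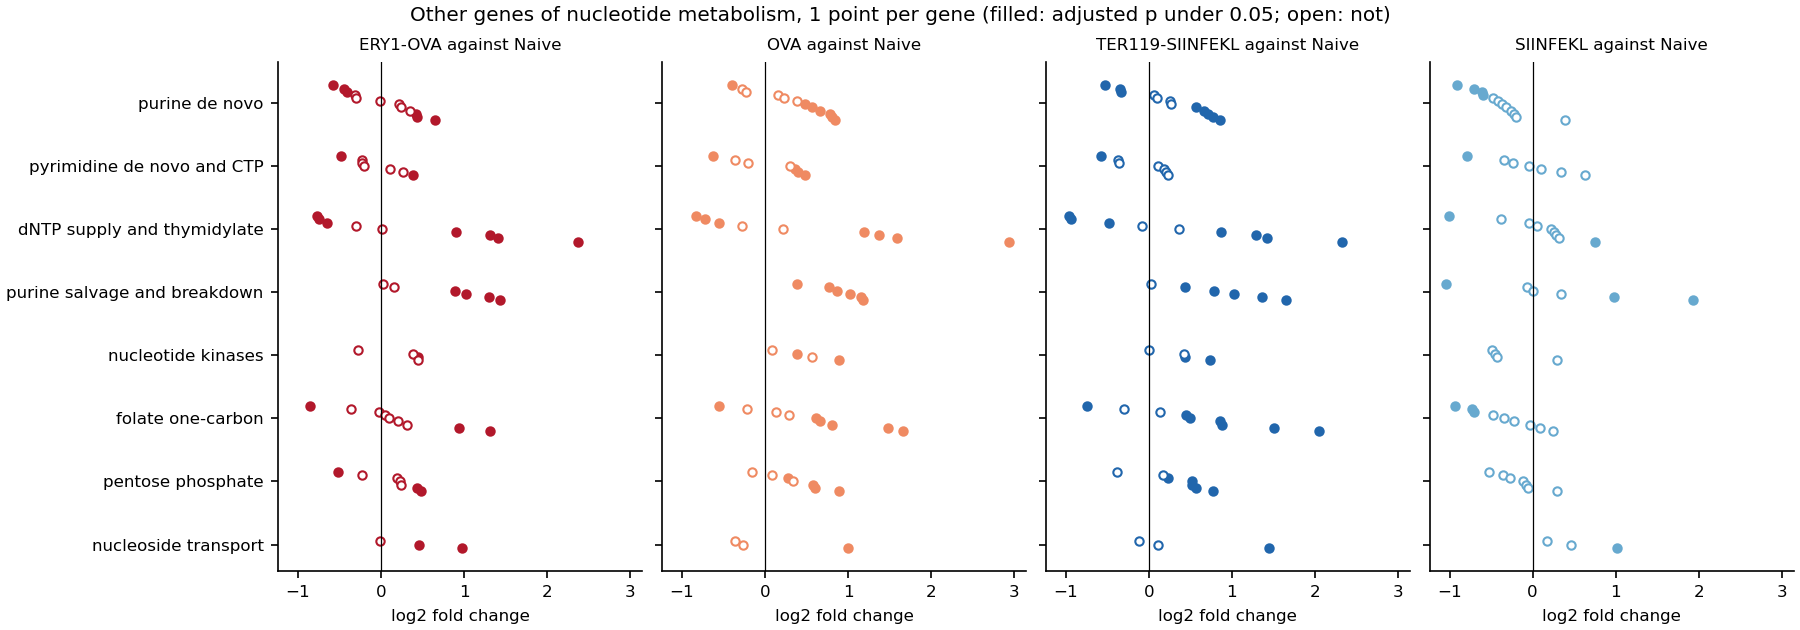
Log2 fold change from Naive of 57 other genes of nucleotide metabolism, 1 point per gene, by list (rows) and antigen group (panels); filled points had an adjusted p under 0.05. The point farthest right in the ERY1-OVA, OVA and TER119-SIINFEKL panels is Dut (2.33 to 2.94), and in the SIINFEKL panel most points lie between -1.04 and 1.02, with Xdh at 1.93.

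Likeness of profiles over the 14 libraries was measured as the root mean square difference in log2 RPKM after each gene was centred on its own mean. Tk1 and Rrm2 differed by 0.36, Tyms and Rrm2 by 0.50 and Tyms and Rrm1 by 0.56, while Umps and Ctps differed by 0.20, Impdh2 and Ctps by 0.24 and Umps and Paics by 0.26. Tk1 and Rrm1 differed by 1.19, more than Rrm1 and Umps did (0.83), and Tk1 and Cad were farthest apart, at 2.38. The SD over the 14 libraries was 2.57 log2 units for Tk1, 2.28 for Rrm2, 1.82 for Tyms and 1.47 for Rrm1. For the other 5 it was 0.53 to 0.67. The measure was not scaled to that spread, so genes that vary little lie close together. It therefore does not rank pairs by the shape of their profiles. The genes nearest to each enzyme were Bub1, Ccnb2 and 2810417H13Rik for Tk1 (0.22 to 0.29), Ccne2, Cks1b and Aurka for Tyms (0.25 each), Mcm5, Gen1 and Cdca7 for Rrm1 (0.16 to 0.20) and Aurkb, Tpx2 and Ncapg for Rrm2 (0.21 to 0.22). For the other 5 the nearest were Slc7a5, Gar1 and Nolc1 (Cad, 0.15 to 0.18), Nup93, Nasp and Alyref (Umps, 0.09 to 0.14), Ywhae, Hmgb1 and Pop4 (Paics, 0.09 to 0.10), Hsp90ab1, Ptma and Ndrg1 (Impdh2, 0.13 to 0.15) and Ppat, Dis3 and Pa2g4 (Ctps, 0.13 to 0.15). All profiles share the same libraries and the same division into groups, and no test was applied.

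Of 6 cell cycle genes set beside the enzymes, 5 were higher than Naive after each of ERY1-OVA, OVA and TER119-SIINFEKL, the exception being Myc. Among all genes tested, 20.9%, 24.4% and 24.6% were called higher in those 3 comparisons and 19%, 23.1% and 23% lower. For SIINFEKL against Naive these shares were 7.58% and 8.34%. Mki67 was 5.19, 5.03 and 4.87 log2 units above Naive after ERY1-OVA, OVA and TER119-SIINFEKL, and E2f1, a transcription factor of S phase genes, 2.28, 2.55 and 2.33. Pcna, the sliding clamp of replication, was 1.59, 1.91 and 1.61 above Naive, and Ccne2 4.13, 4.59 and 3.75. Myc, a regulator of growth metabolism, had 37.8, 43.7 and 64.8 RPKM after ERY1-OVA, 43.5, 51.2 and 47.9 RPKM after OVA, 50.5, 67.2 and 74.5 RPKM after TER119-SIINFEKL, 31.0 and 49.2 RPKM after SIINFEKL, and 73.5, 77.6 and 83.8 RPKM in Naive. It was lower than Naive after ERY1-OVA (-0.72, lost without ERY1-OVA replicate 1 or 2), OVA (-0.72) and SIINFEKL (-1.0, and -0.67 without SIINFEKL replicate 1, not past the test), and differed by -0.31 after TER119-SIINFEKL without passing. After SIINFEKL, 1 of the 6 genes of this list, Mki67, was higher than Naive (2.14, and 0.71 without SIINFEKL replicate 1, not past the test), and 1, Myc, lower.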

How the data were processed

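The 14 libraries hold messenger RNA of the sorted OT-I cells (RNeasy Plus Micro extraction and TruSeq Stranded mRNA libraries, per the labels' protocols). STAR 2.4.2, edgeR, bcl2fastq 2.17.1.14 and the build GRCm38 (mm10) are listed in the submitters' processing notes; the counter, annotation and prior count are not given in the sources used here. The authors deposited 1 table of RPKM on a log2 scale; no source states the base, which was inferred from the value range, with 4.3% of values below 0. No read counts were given, so depth and counting error are unknown, and no pair of libraries held identical values. A log2 value converted back may hold a small added constant, which would understate folds of low genes.

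The deposited log2 values were fitted with limma 3.58.1 (R 4.3.3): 5 group means, a mean-variance trend, and genes whose mean over libraries reached 1 RPKM (9793 of 10106; 313 removed). The degrees of freedom were 9 (residual) plus 4.6 (prior). All 5 groups shared 1 spread per gene, so the SE and interval of a comparison also carry the spread of groups outside it. All tests were two-sided, with Benjamini-Hochberg adjustment over all genes of a comparison, and a gene was called at an adjusted p under 0.05. Group SDs are over libraries. The fit was tested on simulated data, whose settings and outcome are not reported here. Tables and figures were made with matplotlib 3.10.9, numpy 2.4.6 and pandas 2.3.3 under Python 3.11.15.

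The enzymes, the gene lists and the markers were chosen with earlier results of these data known. All 9 enzymes were named, and of each list up to 3 called genes with the largest change in a comparison, plus 4 related isozymes; a few further members of these lists were named after their values were seen. Some genes of these lists enter the counts and are not reported here by name. Alternatives were other scalings, pseudocounts, filters and trend settings, fits of the groups compared alone or without SIINFEKL, a replicate block and leaving out libraries. A correction for gene length and GC content (9716 genes, GENCODE vM21) was added after seeing the data.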

Additional observations from a re-analysis of the deposited data

Results flagged for a closer look

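For all 9 enzymes, the effect of directing antigen to erythrocytes differed between peptide and protein by a test of the difference itself (limma interaction term, TER119-SIINFEKL minus SIINFEKL less ERY1-OVA minus OVA). On the log2 scale the term was 3.91 for Tk1, 3.69 for Rrm2, 3.17 for Rrm1 and 2.88 for Tyms, the DNA precursor genes. It was 2.13 for Cad, 2.10 for Umps and 1.97 for Ctps, the pyrimidine genes, and 1.87 for Impdh2 and 1.14 for Paics, the purine genes. Every term passed at an adjusted p of 0.00086 or below, in a comparison where 20.6% of all genes were called in the same direction. Each term rests on 2 SIINFEKL libraries, which differed from each other in Mki67 (21.2 and 2.89 RPKM) and in Tk1 (11.2 and 1.77 RPKM); the part of that difference in the terms was not tested beyond leaving out each library.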

How the results depend on the processing

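Of the values of single enzymes under the alternatives, 2000 kept their side of the threshold, 45 lost the call and 25 gained one. Where called, 0 turned direction. Some values that were not called changed sign when 1 library was left out. For SIINFEKL against Naive, Rrm1 ran from -0.23 to 0.39 and Paics from -0.01 to 0.15. For TER119-SIINFEKL against ERY1-OVA, Rrm1 ran from -0.06 to 0.15 and Paics from -0.03 to 0.11. The number of enzymes called for SIINFEKL against Naive, 5, became 2 with only the groups compared, and 1 to 7 when 1 library was left out. For ERY1-OVA against OVA, 1 became 0 with quantile normalization, with only the groups compared, with the replicate block and without both OVA replicate 1 and TER119-SIINFEKL replicate 1. It became 2 with the SIINFEKL group left out and 3 after correction for length and GC, and ranged from 0 to 2 when 1 library was left out. For TER119-SIINFEKL against ERY1-OVA, 0 became 1 with the SIINFEKL group left out, without both of those libraries and after correction for length and GC, and ranged from 0 to 1 when 1 library was left out. With 1 library left out, ERY1-OVA against Naive gave 6 to 8, TER119-SIINFEKL against Naive 8 to 9, OVA against Naive 8, and the other 3 comparisons 9. Where 1 SIINFEKL library remained, its spread was taken from the other groups. The replicate numbers did not pair the libraries over all groups: of 26 same-numbered pairs, 14 had a correlation of deviations over 0.1 (range -0.44 to 0.67), and in 22 of 52 matches of a library with another group the same number fitted best. Of the groups compared, TER119-SIINFEKL and Naive had all 3 same-numbered pairs over 0.1 (0.259, 0.322 and 0.300), and the block left 8 enzymes called there. OVA and TER119-SIINFEKL, not compared directly, had 0.665, 0.292 and 0.247, and OVA and Naive had 0.430, 0.137 and -0.018. ERY1-OVA and OVA had -0.443, -0.435 and -0.076. Whether the numbers mark a shared batch in part of the groups was not tested. The replicate block moved the calls over all genes from 104 to 69 for ERY1-OVA against OVA and from 55 to 32 for TER119-SIINFEKL against ERY1-OVA. Over all genes, ERY1-OVA against OVA also gave 71 calls with no trend, 13 without both libraries, 359 without the SIINFEKL group and 237 after correction for length and GC, and 0 without ERY1-OVA replicate 1. TER119-SIINFEKL against ERY1-OVA gave 29 with no trend, 163 without the SIINFEKL group and 94 with the correction, and 0 without ERY1-OVA replicate 2 or TER119-SIINFEKL replicate 2 or 3. With only the groups compared, SIINFEKL against Naive went to 605 calls against 1559 in the full fit, and TER119-SIINFEKL against SIINFEKL to 2131 against 3664. The share of calls that were higher was 41.2% with the length and GC correction against 51.3% for OVA against Naive, 41.3% against 52.4% for ERY1-OVA against Naive, and 57.6% against 47.1% for SIINFEKL against OVA. For ERY1-OVA against OVA it was 61.4% with quantile normalization, 52.1% with no trend and 48.1% with the correction, against 38.5%. The correction moved the median of all genes to -0.11 for OVA against Naive and 0.10 for SIINFEKL against OVA. The cause of these changes was not tested.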
